A study of Mus musculus with 12 samples.

Results

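The mouse genome carries a pair of genes for preproinsulin, Ins1 and Ins2, and both were followed here across 11 libraries of isolated islets of Langerhans. They were taken by their gene names from a table of 34820 genes, so the insulin genes are 2 of 34820. The assay was bulk RNA-seq of islets of C57/Bl6 mice. All animals carried an Ins1::CreERT2 transgene, in which the Ins1 promoter drives a tamoxifen-dependent Cre recombinase, and all received tamoxifen on 3 consecutive days as adults. The wild-type group (Taf4+/+) had intact Taf4 and gave 3 libraries. The mutant group had floxed Taf4 on both alleles and is written Taf4b-/-, where b stands for beta cells, not for the gene Taf4b. It was sampled 1, 3 and 5 weeks after tamoxifen, with 3, 3 and 2 libraries. The labels list a 5-week replicate 1 that is not used here. Each library came from pooled islets of 2 mice that had been kept in culture, and the labels give the wild type no time after tamoxifen, so the loss of Taf4 over time and ageing cannot be told apart.

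Insulin is made as preproinsulin, which loses its signal peptide on entering the endoplasmic reticulum (ER), folds with the help of disulphide isomerases and chaperones, and is cut by prohormone convertases in secretory granules to insulin and C-peptide. Rodents have an ancestral gene, Ins2, with introns both in its 5' untranslated region and in its coding region, and a retroposed copy, Ins1, which lacks the intron in the coding region. Both genes are transcribed in beta cells under factors that bind the proximal promoter, among them Pdx1, Mafa and Neurod1. Taf4 belongs to TFIID, the general factor that sits on core promoters where RNA polymerase II is recruited. The question put to the counts was how each insulin gene changed after the loss of Taf4, and whether the pair changed alike.

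In the NCBIM37 (mm9) assembly with the GENCODE M1 annotation, Ins1 (ENSMUSG00000035804) lies on the plus strand at chr19:52338813-52339946. It has 1 annotated transcript, of 2 exons and 1016 bases. Ins2 (ENSMUSG00000000215) lies on the minus strand at chr7:149864561-149885415. Its 8 annotated transcripts run from 259 to 583 bases, and 1 of them (480 bases) starts far upstream, which stretches the gene to 20855 bases. The main Ins2 transcript, of 478 bases and 3 exons, starts at position 149865631. The coding sequences are shown because reads can be assigned to a gene only where they differ. The 300 bases from each start codon are printed 5' to 3', and capitals mark bases that differ between the genes or stand in an alignment gap.
Ins1: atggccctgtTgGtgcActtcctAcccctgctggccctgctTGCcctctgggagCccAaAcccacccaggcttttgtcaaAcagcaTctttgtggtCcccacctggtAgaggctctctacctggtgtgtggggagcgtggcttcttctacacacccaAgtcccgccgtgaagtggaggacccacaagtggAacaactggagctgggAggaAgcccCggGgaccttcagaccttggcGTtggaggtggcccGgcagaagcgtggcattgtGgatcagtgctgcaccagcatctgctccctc
Ins2: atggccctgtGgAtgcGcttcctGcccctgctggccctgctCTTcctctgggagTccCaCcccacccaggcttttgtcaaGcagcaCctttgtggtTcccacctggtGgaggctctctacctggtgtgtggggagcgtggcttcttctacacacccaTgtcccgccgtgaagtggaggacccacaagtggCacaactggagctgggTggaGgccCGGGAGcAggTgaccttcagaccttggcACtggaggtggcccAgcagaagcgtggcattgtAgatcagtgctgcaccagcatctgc
Over the whole coding sequences, of 327 aligned bases, 302 were identical (92.4%), 25 differed, and Ins2 had a further 6 bases. The annotated ends of the transcripts differ more. Ins1 has 506 annotated bases after its stop codon and the main Ins2 transcript has 54. The longest identical stretch of the annotated transcripts was 56 bases. Of all 40-base windows in the Ins1 transcript, 27 of 977 (2.76%) also occurred in an Ins2 transcript, against 27 of 439 (6.15%) of the Ins2 windows. No window of 75 bases was shared. The authors counted uniquely aligned reads, so reads from the shared windows would be lost from both genes.

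The stretches before the transcription start are shown because Taf4 belongs to the complex that binds there. The Ins2 sequence is the 250 bases before the start of the main transcript, at chr7:149865632-149865881 on the minus strand. The Ins1 sequence is the 142 bases of the matching stretch that lie before the annotated Ins1 start, at chr19:52338671-52338812. Capitals mark TATAAA, the TATA box, and CCATCTG, the core of the E element of insulin promoters, which basic helix-loop-helix factors such as Neurod1 bind.
Ins1: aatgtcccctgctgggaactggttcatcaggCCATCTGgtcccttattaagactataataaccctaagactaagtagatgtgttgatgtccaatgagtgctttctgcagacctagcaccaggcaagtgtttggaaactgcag
Ins2: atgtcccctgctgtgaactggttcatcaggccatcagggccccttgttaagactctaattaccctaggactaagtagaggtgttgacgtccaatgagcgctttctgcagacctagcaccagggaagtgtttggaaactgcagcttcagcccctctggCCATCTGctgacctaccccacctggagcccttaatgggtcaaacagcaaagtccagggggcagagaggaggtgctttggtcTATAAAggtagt
The annotated Ins1 transcript starts 108 bases upstream of the base that pairs with the Ins2 start, so the Ins1 TATA box falls within its annotated first exon. The 24 bases that end just before the paired start are at chr19:52338897-52338920 for Ins1 and chr7:149865632-149865655 for Ins2, with the TATA box in capitals.
Ins1: ggtactttggacTATAAAgctggt
Ins2: ggtgctttggtcTATAAAggtagt
Over the paired 250 bases, 229 of 249 aligned bases were identical (92.0%). Both genes had 1 TATAAA match, 12 bases before the Ins2 start or its pair. A match to TATAAA on either strand occurred in the 250 bases before the start of 12.4% of 32851 mouse promoters in RefSeq (GRCm38.p6). The E element core CCATCTG was found in 2 places in Ins1 and in 1 place in Ins2, and in 4.44% of all promoters. The 2 Ins1 matches began 219 and 93 bases before the paired start, and the Ins2 match began 93 bases before its start. Each gene had 3 matches to TAAT, the core that homeodomain factors such as Pdx1 bind, which 54.9% of promoters hold. CANNTG, the general E box, which includes the last 6 bases of CCATCTG, matched 4 times in Ins1 and 2 times in Ins2, and 66.2% of promoters hold it. Both genes had 1 CCAAT (33.8% of promoters). TGACG, part of a cAMP response element, matched once in Ins2 and not in Ins1 (17.8% of promoters). These matches describe letters on both strands and are not evidence of binding.

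Libraries held 13865518 to 21581153 counts, so counting error on the insulin genes was small beside the spread between replicates. Markers of acinar cells, the exocrine cells that surround islets, took 28.1 to 50.4% of wild-type counts, 6.82 to 23.7% at 1 week, 3.27 to 4.56% at 3 weeks and 0.0344 to 0.224% at 5 weeks. Their share was lower at each later time, and all 29 markers were detected in every group. Sex-linked genes also followed genotype. Xist had at most 389 counts in a wild-type library and at least 24615 in a mutant one, while Ddx3y had 420 to 604 counts in wild type and none in the mutants, so sex and genotype cannot be told apart. Counts of the targeted gene, listed as Taf4a, were 22.97 to 29.85 in wild type as CPM, counts scaled to a common library size. They were 27.17 to 36.98 CPM at 1 week, 25.90 to 27.36 at 3 weeks and 21.69 to 27.49 at 5 weeks, and no comparison passed the test (adjusted p 0.528 to 0.870, edgeR). That count covers the whole gene and islet cells in which the transgene is silent, so it does not check the deletion. In bulk islets, fewer beta cells and less insulin mRNA per beta cell cannot be told apart.

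Ins1 fell at every time after Taf4 loss, and further with time. Levels are CPM after trimmed mean of M-values (TMM) scaling unless said otherwise. In wild type, Ins1 stood at 78838, 97504 and 107287 CPM in replicates 1 to 3. At 1 week the mutants had 47702, 18573 and 36480 CPM, and at 3 weeks 11384, 13465 and 11504 CPM. At 5 weeks replicate 2 had 3631 CPM and replicate 3 had 4595 CPM. The 4 groups did not overlap. The 1-week replicates were the widest, with 2.57 times between the highest and the lowest, against 1.36 times in wild type. The log2 fold change against wild type was -1.46 ± 0.34 (SE) at 1 week, -2.96 ± 0.36 at 3 weeks and -4.52 ± 0.46 at 5 weeks. This is a 2.76-fold, a 7.80-fold and a 22.99-fold lower level. Each fall passed the test (adjusted p = 0.0106, 2.26e-05 and 8.97e-07, edgeR quasi-likelihood with Benjamini-Hochberg adjustment over 20180 genes). The steps between mutant times passed it in this fit, though not under every scaling. Ins1 changed by -1.50 ± 0.34 from 1 to 3 weeks (adjusted p = 0.0166) and by -1.56 ± 0.39 from 3 to 5 weeks (adjusted p = 0.0133, edgeR). The first of these steps lost its call without 1-week replicate 1 or 3, or without any 1 of the 3-week replicates (adjusted p 0.0533 to 0.133). The second lost it without 3-week replicate 1 or 2 (0.0520 and 0.0531). With library totals alone the steps were -1.07 and -1.22 (adjusted p = 0.0727 and 0.0795), and with pan-endocrine scaling the step from 3 to 5 weeks was -0.85 (adjusted p = 0.110). With library totals alone as the scale, the 1-week fall was -1.24 with an adjusted p of 0.0523.

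**Figure D1:**
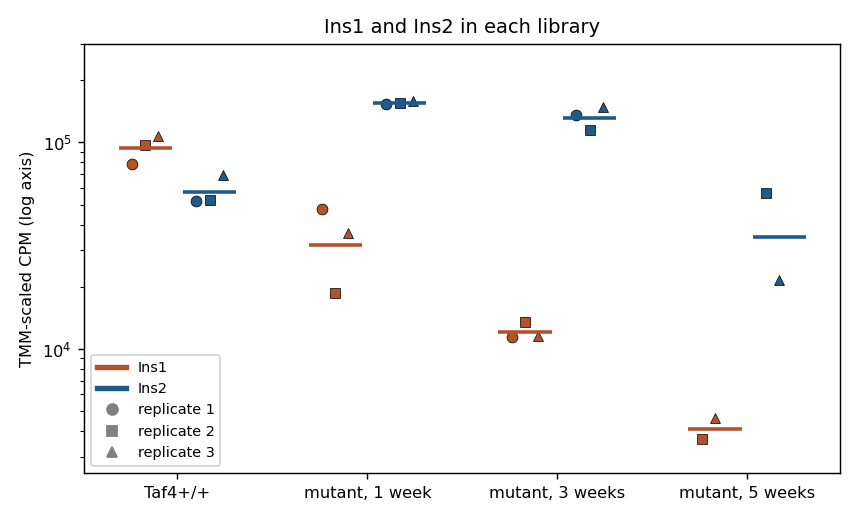
TMM-scaled CPM (log axis) of Ins1 and Ins2 in each library, by group, with replicates as symbols and bars at the geometric mean. The 4 groups of Ins1 values do not overlap, while Ins2 at 5 weeks runs from 21435 to 56773 CPM, around the lower wild-type values.

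Ins2 moved the other way at first. It stood at 52287, 52568 and 69628 CPM in wild-type replicates 1 to 3 and at 153759, 154664 and 159142 CPM in the mutants at 1 week. At 3 weeks the values were 136061, 114317 and 147738 CPM. At 5 weeks they were 56773 CPM in replicate 2 and 21435 CPM in replicate 3. All 6 mutant libraries at 1 and 3 weeks were above all wild-type libraries, and the 5-week pair straddled the lowest wild-type library. The same 1-week libraries that were wide for Ins1 were close for Ins2, with 1.03 times between the highest and the lowest. At 5 weeks the order of the pair turned over between the genes, since replicate 2 had more Ins2 and less Ins1 than replicate 3.

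The log2 fold change of Ins2 was 1.42 ± 0.37 at 1 week (2.68-fold, adjusted p = 0.0220) and 1.19 ± 0.37 at 3 weeks (2.28-fold, adjusted p = 0.0350). At 5 weeks it was -0.57 ± 0.42 and did not pass the test (adjusted p = 0.319, edgeR). Both rises were near the threshold in this fit, while by the DESeq2 Wald test the adjusted p was 1.48e-07 and 8.82e-06. Without wild-type replicate 1 or 2 or 1-week replicate 3, the 1-week rise was 1.38, 1.38 and 1.43 with adjusted p of 0.0858, 0.0786 and 0.0571, and the 3-week rise lost its call whichever library was left out (1.105 to 1.358, adjusted p 0.0513 to 0.144). When libraries were scaled on 12 pan-endocrine genes, the rises were 1.24 and 0.96 (adjusted p = 0.0638 and 0.131). Those 12 genes were not all steady under TMM. At 1, 3 and 5 weeks 0, 4 and 3 of them were called higher and 0, 1 and 2 lower, beside 9.76, 16 and 29.1% of all genes called. Ins2 then fell between 3 and 5 weeks by 1.76 ± 0.44 on the log2 scale (adjusted p = 0.0123), and its difference between 1 and 3 weeks was -0.23 ± 0.37 (adjusted p = 0.798). The fall from 3 to 5 weeks had an adjusted p of 0.0602 without 3-week replicate 1 and 0.0622 without 3-week replicate 3, and was -1.47 with library totals alone (0.0511) and -1.05 with pan-endocrine scaling (0.0780). The value at 5 weeks depended on the library used, being -1.43 (adjusted p = 0.00265) without replicate 2 and -0.02 without replicate 3, and it was 0.40 with library totals alone as the scale.

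Of the genes tested, 9.76% were called in either direction at 1 week, 16% at 3 weeks and 29.1% at 5 weeks. Both insulin genes were called at 1 and 3 weeks, in opposite directions, and 1 of 2 at 5 weeks. Between mutant times, 3.82% of genes were called from 1 to 3 weeks, Ins1 among them, and 16.4% from 1 to 5 weeks and 11.8% from 3 to 5 weeks, with both insulin genes among them. All comparisons with wild type share the same 3 wild-type libraries.

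Summed over both genes as counts not corrected for length, insulin differed from wild type past the threshold at 5 weeks only. The sum was 131125, 150072 and 176916 CPM in wild type, 201461, 173237 and 195623 CPM at 1 week, and 147444, 127782 and 159243 CPM at 3 weeks. At 5 weeks it was 60404 CPM in replicate 2 and 26029 CPM in replicate 3, below every other library. The sum differed from wild type by 0.32 ± 0.37 on the log2 scale at 1 week (adjusted p = 0.633) and by -0.08 ± 0.37 at 3 weeks (adjusted p = 0.917), neither of which passed the test. It fell by 1.82 ± 0.44 at 5 weeks, a 3.53-fold lower level (adjusted p = 0.00441, edgeR). The 5-week fall was -0.86 with library totals alone as the scale (adjusted p = 0.166). It was -2.54 without 5-week replicate 2 and -1.33 without replicate 3, and passed the test in both cases. The sum also fell from 3 to 5 weeks, by 1.75 ± 0.44 (adjusted p = 0.0130). That step lost its call without 3-week replicate 1 (-1.73, adjusted p = 0.0675) or 3-week replicate 3 (-1.67, adjusted p = 0.0681), with library totals alone (-1.44, adjusted p = 0.0615) and with pan-endocrine scaling (-1.03, adjusted p = 0.0909).

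**Figure D2:**
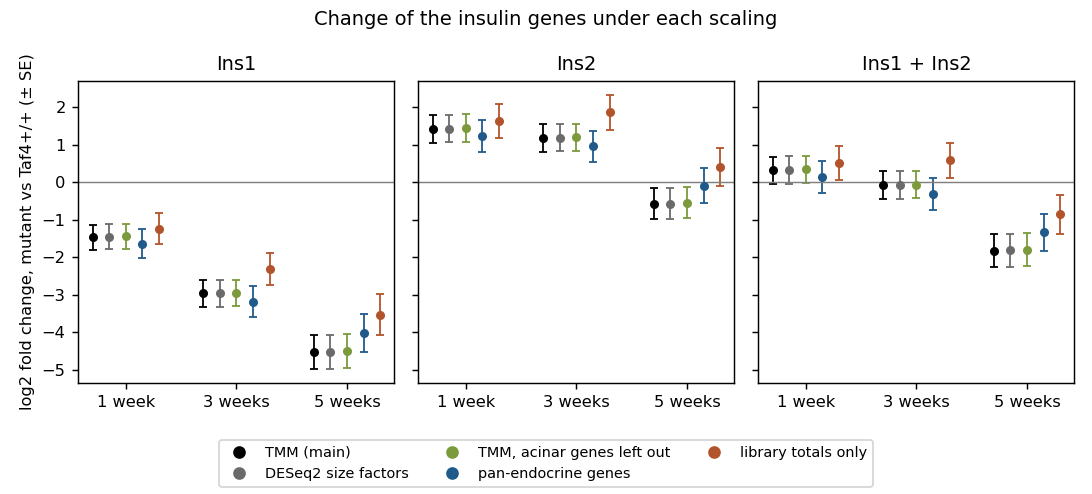
Log2 fold change (± SE) of Ins1, Ins2 and their sum in the mutant at 1, 3 and 5 weeks against wild type, under 5 ways of scaling the libraries. Ins1 is below 0 under each of them, from -1.24 at 1 week with library totals to -4.52 at 5 weeks with TMM, while Ins2 at 5 weeks lies between -0.57 and 0.40.

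As a share of all counts, the sum was 8.53 to 15.2% in wild type, where acinar RNA was abundant, 13.4 to 19.9% at 1 week, 15.7 to 18.4% at 3 weeks and 4.12 to 8.60% at 5 weeks. With the counts of the 29 acinar markers left out of the total, it was 17.2, 21.2 and 20.5% in wild type and 21.4, 17.6 and 19.5% at 1 week. It was 18.5, 16.4 and 19.02% at 3 weeks, and 8.62 and 4.12% at 5 weeks. On this basis, again not corrected for length, wild type, 1 week and 3 weeks overlapped, and both 5-week libraries were lower. Ins1 made up 10.3 to 13.8% of non-acinar counts in wild type, 1.89 to 5.06% at 1 week, 1.37 to 1.73% at 3 weeks and 0.518 to 0.727% at 5 weeks. Ins2 made up 6.86 to 8.07% in wild type, 15.7 to 16.3% at 1 week, 14.7 to 17.6% at 3 weeks and 3.39 to 8.10% at 5 weeks. By raw count, not corrected for length, Ins1 went from the 2nd most counted gene in each wild-type library to rank 3, 7 and 4 at 1 week, 5 in each 3-week library, and 9 and 4 at 5 weeks. Ins2 was the most counted gene in each 3-week library, where it took 14.02 to 17.05% of counts.

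The ratio of Ins2 to Ins1 counts within a library does not depend on how libraries are scaled or on acinar RNA. It was 0.663, 0.539 and 0.649 in wild type, so Ins1 had more counts than Ins2 in each. At 1 week it was 3.22, 8.33 and 4.36, and at 3 weeks 12.0, 8.49 and 12.8. At 5 weeks it was 15.6 in replicate 2 and 4.67 in replicate 3. Every mutant library was above every wild-type library. Expressed as a share, Ins2 gave 35.0 to 39.9% of insulin counts in wild type, 76.3 to 89.3% at 1 week, 89.5 to 92.8% at 3 weeks, and 94.0 and 82.3% at 5 weeks. Wilson 95% intervals on these shares were at most 0.162 percentage points wide. They cover only the error of counting reads as if independent, although RNA was amplified before sequencing.

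On the log2 scale the mean ratio was -0.70 ± 0.16 (SD, n = 3) in wild type, 2.29 ± 0.70 (n = 3) at 1 week, 3.45 ± 0.32 (n = 3) at 3 weeks and 3.09 ± 1.23 (n = 2) at 5 weeks. Against wild type the geometric mean ratio was higher, in 1-week mutants 7.96-fold, in 3-week mutants 17.8-fold and in 5-week mutants 13.9-fold. Each of these had p = 0.10 in a two-sided exact permutation test, the smallest that 3 against 3 or 2 against 3 libraries can give (0.15 after adjustment over 6 comparisons). With all 8 mutant libraries against the 3 wild-type libraries, the ratio was 12.4-fold higher with p = 0.00606, the smallest that the exact permutation test can give. The 3-week ratios were all above the 1-week ratios, by 2.23-fold in the mean (exact permutation p = 0.10, 0.15 adjusted). The 5-week pair overlapped both the 1-week group (exact permutation p = 0.40) and the 3-week group (p = 0.80, exact permutation). Its differences from those groups changed sign with the library left out, to -0.07 against 1 week without replicate 2 and 0.52 against 3 weeks without replicate 3 (log2).

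**Figure D3:**
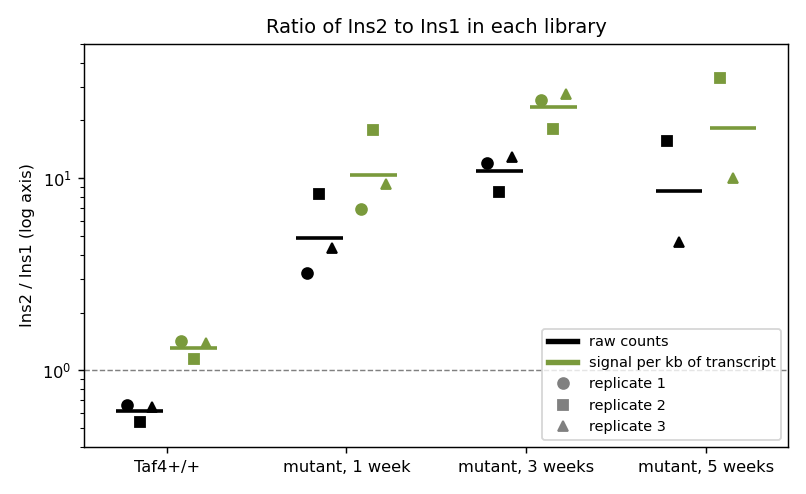
Ratio of Ins2 to Ins1 in each library (log axis), from raw counts (black) and from the deposited signal per kb of transcript (green), with bars at the geometric mean and a dashed line at 1. Wild-type ratios lie below 1 by counts (0.539 to 0.663) and above 1 per kb (1.15 to 1.42), and all mutant ratios lie above all wild-type ratios on either scale.

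Which gene led in wild type depended on length. The deposited signal per kb divides by 1016 bases for Ins1 and by a median of 475 bases over the Ins2 transcripts, and on this scale Ins2 exceeded Ins1 in wild type too, by 1.42, 1.15 and 1.39 times. Mutant ratios per kb were 6.89, 17.8 and 9.33 in the 1-week libraries, 25.6, 18.2 and 27.5 in the 3-week libraries, and 33.4 and 9.98 in the 5-week libraries. The change of the ratio with genotype was the same on both scales, because the length is a constant of each gene. The order of Ins1 and Ins2 in wild type is therefore a matter of the lengths used, and their order in the mutants is not. Their sum depends on the lengths too. In wild type, Ins1 signal was 1328080 to 1822500 and Ins2 signal 1884000 to 2529920. At 1 week they were 317661 to 812942 and 5604800 to 5913950. At 3 weeks they were 195245 to 230331 and 4182740 to 5407460, and at 5 weeks 62915 to 78450 and 782837 to 2104250. On this scale Ins2 gained more than Ins1 lost at 1 and 3 weeks. The sum per kb was not tested.

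Beside the other islet hormones, the share of insulin was lower in every mutant library than in any wild-type library. The share of Ins1 and Ins2 was taken among counts of Ins1, Ins2, Gcg (glucagon, of alpha cells), Sst (somatostatin, of delta cells), and Ppy and Pyy (pancreatic polypeptide and peptide YY), as counts not corrected for length. Insulin took 78.5, 82.5 and 71.8% in wild type, 52.5, 44.5 and 49.2% at 1 week, and 57.5, 57.9 and 56.7% at 3 weeks. It took 39.7% in 5-week replicate 2 and 30.2% in replicate 3. The mean differences from wild type were -28.9 percentage points at 1 week, -20.2 at 3 weeks and -42.7 at 5 weeks. Each comparison had p = 0.10, the smallest possible in the exact permutation test (two-sided, 0.10 adjusted over 6 comparisons). All 8 mutant libraries against wild type gave p = 0.00606 in the exact permutation test, the smallest it can give.

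The insulin genes differed within that share. Ins1 went from 43.6 to 53.6% of hormone counts in wild type to 4.77 to 12.4% at 1 week, 4.10 to 6.10% at 3 weeks, and 2.39 and 5.33% at 5 weeks. Ins2 went from 28.3 to 31.3% in wild type to 39.7 to 40.1% at 1 week and 51.8 to 53.0% at 3 weeks, then to 37.3 and 24.8% at 5 weeks. Gcg took 15.5 to 25.3% in wild type, 44.4 to 49.7% at 1 week, 36.5 to 37.6% at 3 weeks, and 56.1 and 64.9% at 5 weeks. In the fit across all genes Gcg rose by 2.16 ± 0.38 on the log2 scale at 1 week (adjusted p = 0.00175) and 1.20 ± 0.37 at 3 weeks (adjusted p = 0.0315), and differed by 0.79 ± 0.40 at 5 weeks (adjusted p = 0.144, edgeR). Sst rose by 1.92 ± 0.35 and 1.78 ± 0.35 at 1 and 3 weeks (adjusted p = 0.00242 and 0.00183, edgeR) and was at -0.30 ± 0.38 at 5 weeks. Markers of alpha cells took 2.24 to 4.13% of all counts in wild type and 9.25 to 17.8% in the mutants, and their part in the hormone shares was not tested. Iapp, the amylin that beta cells release with insulin, did not pass the test at any time, with 0.50 ± 0.27, 0.25 ± 0.27 and -0.07 ± 0.31 on the log2 scale.

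**Figure D4:**
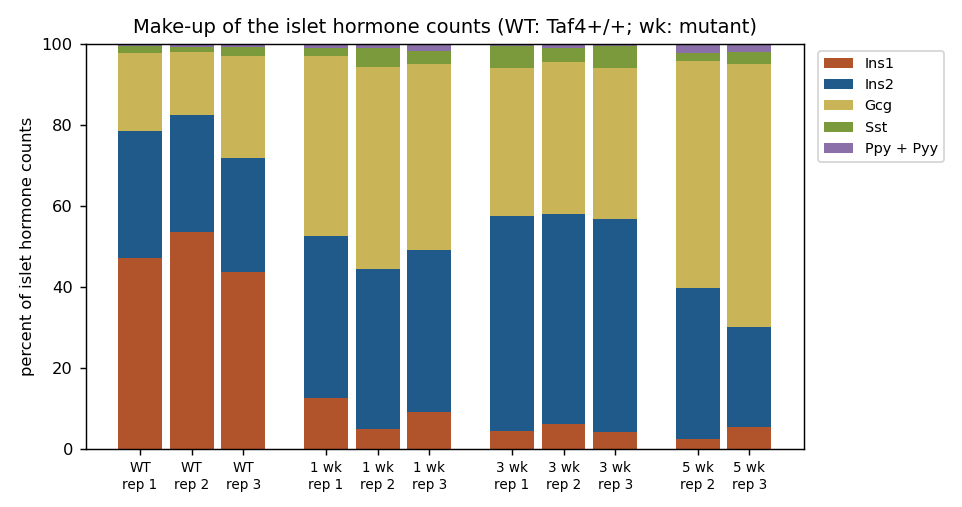
Percent of islet hormone counts (Ins1, Ins2, Gcg, Sst, and Ppy with Pyy) in each library, as stacked bars from 0 to 100%. Ins1 and Ins2 together fill 71.8 to 82.5% in wild type and 30.2 to 57.9% in the mutants, and the Ins1 part is at most 12.4% in any mutant library.

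Of 20 listed factors that bind or act on the insulin promoters, 19 were measured. The 1-week mutants had 3 higher and 1 lower, the 3-week mutants 2 and 1, and the 5-week mutants 5 and 1 (adjusted p below 0.05, edgeR). Over all genes tested, 5.34% were higher and 4.42% lower in 1-week mutants, 8.24% and 7.76% in 3-week mutants, and 15% and 14.1% in 5-week mutants. Higher genes made up 54.7, 51.5 and 51.6% of these calls, against 71.8, 93.3 and 91.8% with library totals alone and 23.5, 15.9 and 81.2% with pan-endocrine scaling. The list's median log2 fold changes were 0.23, 0.30 and 0.21, beside -0.04, -0.05 and -0.03 over all genes tested. With library totals alone, 4, 15 and 18 of the 19 were higher and 0 lower at the successive times, and with pan-endocrine scaling 1, 2 and 13 were higher and 1 lower each time. Pdx1, which binds both insulin promoters, was at 93.5 to 101 CPM in wild type and passed no test (0.04 ± 0.16, 0.31 ± 0.16 and -0.27 ± 0.18 at 1, 3 and 5 weeks). Mafa, the mature beta cell activator of insulin, was lowly expressed at 5.97 to 10.5 CPM in wild type, with 0.73 ± 0.28, 0.58 ± 0.28 and -0.12 ± 0.31. Neurod1, an E box factor, was at 0.24 ± 0.14 and 0.36 ± 0.14 and rose by 0.43 ± 0.15 at 5 weeks (adjusted p = 0.0409).

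Nkx6-1, a beta cell identity factor, was at 288 to 307 CPM in wild type, fell by 0.68 ± 0.16 at 1 week and 1.09 ± 0.18 at 5 weeks (adjusted p = 0.0121 and 2.5e-04), and was at -0.24 ± 0.16 at 3 weeks (adjusted p = 0.331, edgeR). Tcf3, the E protein partner of Neurod1, rose at 1 week (0.72 ± 0.16, adjusted p = 0.0083, edgeR). Rfx6 rose at 3 and 5 weeks (0.72 ± 0.13 and 0.44 ± 0.15).

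Among genes for folding proinsulin in the ER, more were called lower than higher. Of 19 measured, 6, 9 and 8 were lower and 0, 0 and 3 were higher at the successive times, with medians of -0.32, -0.37 and -0.41. Over all genes tested, 4.42, 7.76 and 14.1% were lower and 5.34, 8.24 and 15% were higher, so the 5-week share higher was near that of all genes. Counts with library totals alone as the scale were 0 higher and 1 lower, 4 and 2, and 9 and 2. The balance of calls at 3 and 5 weeks thus turned over on that scale. Pan-endocrine scaling gave 0 higher and 7 lower, 0 and 10, and 3 and 4. List medians were -0.12, 0.31 and 0.58 with library totals, beside 0.15, 0.61 and 0.95 over all genes. They were -0.51, -0.61 and 0.05 with pan-endocrine scaling, beside -0.23, -0.29 and 0.44. On each of these scales the list median lay below that of all genes at each time. Ero1lb, the beta cell oxidase that passes electrons from protein disulphide isomerase, was at 1526 to 1748 CPM in wild type, 805 to 966 at 1 week, 976 to 1070 at 3 weeks, and 386 and 439 at 5 weeks. It fell by 0.88 ± 0.16 at 1 week (adjusted p = 0.0025) and by 1.96 ± 0.19 at 5 weeks (adjusted p = 6.5e-07, edgeR). Its paralogue Ero1l had 44.2 to 50.1 CPM in wild type and 164 and 185 CPM at 5 weeks, a rise of 1.90 ± 0.15 (adjusted p = 8.3e-08). Prdx4, an ER peroxiredoxin, fell by 1.77 ± 0.29 at 3 weeks and 2.75 ± 0.36 at 5 weeks, while Sdf2l1, a chaperone cofactor, fell at all times (-1.09 ± 0.17, -1.51 ± 0.17 and -1.16 ± 0.19). Acinar cells also express many of these ER genes, and 14, 29 and 29 of 29 acinar markers fell at 1, 3 and 5 weeks. Their part in these falls was not tested.

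In the list for proinsulin conversion and granules, 3, 3 and 1 of 14 were higher and 1, 1 and 5 were lower at the successive times (medians 0.28, 0.13 and -0.24), beside the 9.76, 16 and 29.1% of all genes called in either direction. The 5-week balance turned over with the scale, to 8 higher and 0 lower with library totals alone and 2 higher and 1 lower with pan-endocrine scaling, and with library totals the 3-week counts were 7 and 0. Slc30a8, the zinc transporter of insulin granules, fell throughout, from 480 to 684 CPM in wild type to 303 to 384, 273 to 301, and 219 and 221 CPM. Its log2 fold changes were -0.71 ± 0.16, -0.998 ± 0.16 and -1.36 ± 0.18 (adjusted p = 0.0081, 2.8e-04 and 2.4e-05, edgeR). Vgf, a granule protein precursor, rose from 7.10 to 16.5 CPM in wild type to 61.4 and 85.9 CPM at 5 weeks, by 2.79 ± 0.27 (adjusted p = 5.1e-07). Pcsk1 and Pcsk2 are the convertases that cut proinsulin. Pcsk1 was at -0.31 ± 0.17, -0.14 ± 0.17 and -0.95 ± 0.20, of which the last passed (adjusted p = 0.0013, edgeR). That 5-week log2 fold change of Pcsk1 was 0.0034 with library totals as the scale, so the fall was absent there. Pcsk2 was at 0.41 ± 0.17, 0.31 ± 0.17 and -0.06 ± 0.19, of which none passed.

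For the insulin receptor, its signalling and insulin degradation, 1, 1 and 3 of 13 were higher and 1, 2 and 1 were lower at the successive times (medians -0.09, 0.07 and -0.11), beside the same shares of all genes called. With library totals alone 0, 7 and 11 were higher and 0 lower, and with pan-endocrine scaling 0, 0 and 6 were higher and 3, 4 and 0 lower. Insr, the receptor, fell by 0.55 ± 0.15 and 0.66 ± 0.15 at 1 and 3 weeks (adjusted p = 0.030 and 0.0063, edgeR). With library totals as the scale, the 3-week log2 fold change of Insr was 0.02, so the fall was absent there. Igf1r, the related receptor of insulin-like growth factor 1, was at 48.0 to 51.6 CPM in wild type and 177 and 305.5 CPM at 5 weeks, a rise of 2.29 ± 0.19 (adjusted p = 1.1e-07). Slc2a2, the beta cell glucose transporter GLUT2, fell at each time by more than Ins1, from 390 to 573 CPM in wild type to 7.25 to 33.2 CPM at 1 week, 9.14 to 11.7 at 3 weeks, and 7.99 and 4.54 at 5 weeks. Its log2 fold changes were -4.72 ± 0.38, -5.53 ± 0.40 and -6.26 ± 0.50 (adjusted p at most 4.1e-07, edgeR), and the difference from Ins1 was not tested. At 1 week, Slc2a2 and Ins1 had the same order among the replicates, highest in replicate 1 and lowest in replicate 2. Their orders differed at 3 and 5 weeks. Of 18 beta cell markers, 9 were lower at 1 week, 8 at 3 weeks and 12 at 5 weeks, and 0, 1 and 0 were higher, where 4.42, 7.76 and 14.1% of all genes were lower. With library totals alone 4, 4 and 7 were lower and 1, 7 and 6 higher, so the balance at 3 weeks turned over on that scale. With pan-endocrine scaling 10, 9 and 9 were lower and 0, 0 and 3 higher.

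**Figure D5:**
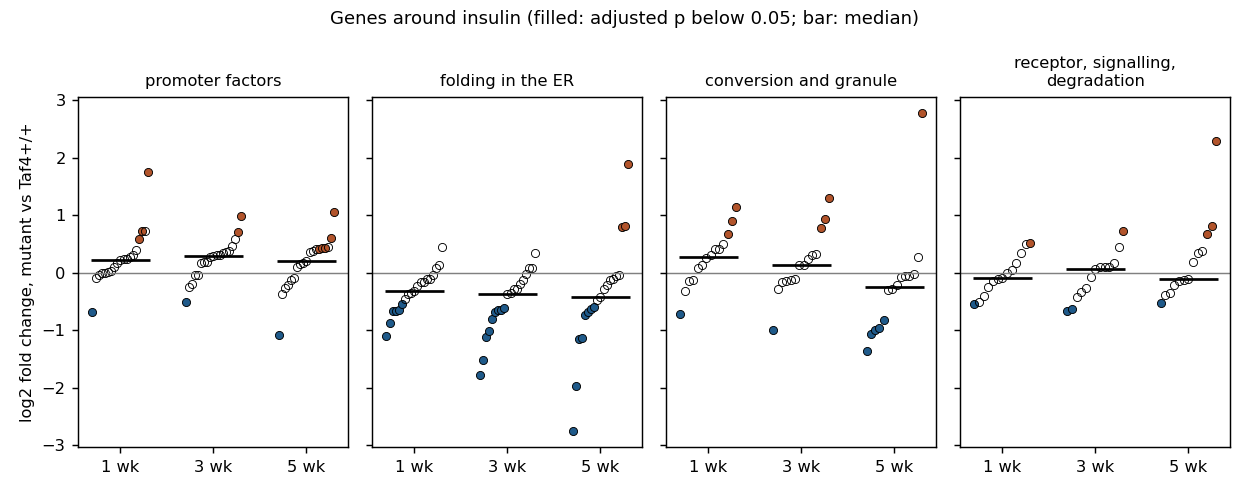
Log2 fold change of each measured gene in 4 lists around insulin, in the mutant at 1, 3 and 5 weeks (wk) against wild type, filled where the adjusted p was below 0.05, with bars at the list median. Medians stay between -0.41 and 0.30, while the folding list has 6, 9 and 8 genes filled below 0.

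The genes with the most similar course differed between Ins1 and Ins2. Likeness was the root mean square (RMS) difference of mean-centred log2 CPM over the 11 libraries, among 8231 genes with a mean of at least 10 CPM. The genes nearest to Ins1 were Ucn3 (RMS 0.460), Gas6 (0.576), Gm572 (0.582), Cox6a2 (0.639) and Ahnak (0.663), beside a median of 1.72 over all genes compared. Ucn3, the urocortin 3 of mature beta cells, went from 435 to 581 CPM in wild type to 177, 77.2 and 122 CPM at 1 week, 81.7, 81.5 and 96.1 CPM at 3 weeks, and 36.0 and 22.2 CPM at 5 weeks. As for Ins1, 1-week replicate 2 was the lowest of its group, while the order of the replicates at 3 and 5 weeks differed from that of Ins1. The genes nearest to Ins2 were mt-Rnr1 (0.299), mt-Nd1 (0.327), Gm13341 (0.354), Gm13340 (0.364) and Nostrin (0.375), beside a median of 0.953. Of these, mt-Rnr1 and mt-Nd1 lie on the mitochondrial genome. The ribosomal RNA mt-Rnr1 stood at 2017 to 2904 CPM in wild type and 5871 to 8741 CPM at 1 week, and at 5 weeks at 3883 CPM in replicate 2 and 822 CPM in replicate 3. Between Ins1 and Ins2 themselves the RMS difference was 1.75, which placed Ins2 at rank 4670 from Ins1 and Ins1 at rank 8133 from Ins2.

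Genes beside the insulin genes on the chromosome were read in the same fit. Around Ins1 no gene of the table lay within 500 kb. The nearest were Xpnpep1, an aminopeptidase gene 677961 bases towards higher coordinates, and a 5S ribosomal RNA with at most 2 counts in any library. Xpnpep1 was at -0.48 ± 0.16, -0.72 ± 0.16 and 0.13 ± 0.17, of which the 3-week value passed the test (adjusted p = 0.00378, edgeR). Around Ins2, 34 genes of the table lay within 500 kb and 17 were tested, of which 3, 6 and 5 were called at 1, 3 and 5 weeks, beside the 9.76, 16 and 29.1% of all genes given above. The nearest on either side were Igf2as, 8300 bases away, and the pseudogene Gm7290, which had at most 12 counts in any library. Igf2as had 1 to 34 counts and passed no test (0.17 ± 0.81, 0.64 ± 0.77 and 1.00 ± 0.82).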

How the data were processed

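Bulk RNA-seq of isolated islets was analysed from the counts deposited by the authors, which are raw whole numbers of reads per Ensembl gene. A second set of columns, a signal per kb of median transcript length that the authors made from normalised counts, served for the per-kb levels and ratio of Ins2 and Ins1 only. Columns of the authors' own comparisons (fold changes, p-values) and further sheets were not used. RNA had been amplified linearly. The submitters' notes and the study name bcl2fastq 2.17.1.14 for demultiplexing, cutadapt 1.10 for trimming, Bowtie2 2.2.8 for removal of ribosomal reads, STAR 2.5.3a for alignment to mm9, and HTSeq in union mode for counting. Uniquely aligned reads alone were counted, which removes reads that match both insulin genes. Strand use in counting and read length are not given in the sources used here.

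Sample titles gave the group and replicate of each library. After filterByExpr (20180 of 34820 genes, 99.8% of counts or more per library), libraries were scaled by TMM and tested in 1 quasi-likelihood fit over 4 groups with edgeR 4.0.16 (R 4.3.3), with 6 comparisons and Benjamini-Hochberg adjustment over all genes tested. A gene is said to rise or fall at an adjusted p below 0.05. Standard errors are the log2 fold change over the square root of F. The fit was tested on simulated data before use. Ratios and shares were compared by two-sided exact permutation tests. P-values measure the spread between pools of mice.

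Alternatives were DESeq2 size factors, library totals alone, scaling on 12 pan-endocrine genes, totals and TMM without acinar markers, the DESeq2 1.42.0 Wald test, no filter, fitting only the groups compared, a replicate block and leaving out each library. Named genes were Ins1, Ins2, 10 beta cell and hormone genes, at most 6 members of each list by smallest adjusted p in a comparison, 5 genes of most similar course for each insulin gene, and the nearest gene on each side. Some genes that this rule takes are not reported here. The members and lists were chosen with earlier results of these data known. Sequences were read from NCBIM37 with GENCODE M1 and, for the search of all promoters, from RefSeq, and aligned with Biopython 1.88.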

Additional observations from a re-analysis of the deposited data

Results flagged for a closer look

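Changes of the insulin genes differed between times after Taf4 loss, by the test of the difference itself in edgeR (log2 fold change between mutant times ± SE, adjusted over 20180 genes). For Ins1 the difference was -1.50 ± 0.34 from 1 to 3 weeks (adjusted p = 0.0166), -3.06 ± 0.42 from 1 to 5 weeks (adjusted p = 5.42e-05) and -1.56 ± 0.39 from 3 to 5 weeks (adjusted p = 0.0133), so that each mutant time stood below the one before it. For Ins2 it was -1.99 ± 0.44 from 1 to 5 weeks (adjusted p = 0.00415) and -1.76 ± 0.44 from 3 to 5 weeks (adjusted p = 0.0123), with no call from 1 to 3 weeks. For the sum of both genes it was -2.14 ± 0.44 from 1 to 5 weeks (adjusted p = 0.00261) and -1.75 ± 0.44 from 3 to 5 weeks (adjusted p = 0.0130). The 5-week group holds 2 libraries, and their Ins2 levels differed by 2.65 times.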

How the results depend on the processing

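The falls of Ins1 against wild type kept their direction under every alternative run. The 1-week fall lost its call with library totals alone (-1.24) and when only the 2 groups compared were fitted (-1.47). The rises of Ins2 at 1 and 3 weeks lost theirs with pan-endocrine scaling (1.24 and 0.96). Among steps between mutant times, library totals alone ended the calls of Ins1 from 1 to 3 weeks (-1.07) and from 3 to 5 weeks (-1.22), of Ins2 from 3 to 5 weeks (-1.47), and of the sum from 3 to 5 weeks (-1.44) and at 5 weeks against wild type (-0.86). Pan-endocrine scaling ended the 3 to 5 week calls of Ins1 (-0.85), Ins2 (-1.05) and the sum (-1.03). Fitting only the 2 groups compared ended the 1 to 5 week calls of Ins2 (-2.01) and the sum (-2.16) and the 5-week call of the sum (-1.81). Same-numbered libraries had correlations of -0.374 to 0.2 between their deviations from the group means, and differently numbered ones -0.258 to 0.395. These values gave no sign that replicate numbers pair the libraries. They cannot exclude it, since the deviations of the 2 libraries at 5 weeks mirror each other by construction. With the replicate block, the calls of Ins2 at 1 week (1.42) and 3 weeks (1.19), of Ins1 from 1 to 3 weeks (-1.45) and 3 to 5 weeks (-1.54), and from 3 to 5 weeks of Ins2 (-1.82) and the sum (-1.79) did not pass the threshold.

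Leaving out each library in turn gave the following ranges against wild type. Ins1 was -1.74 to -1.14 at 1 week, -3.07 to -2.85 at 3 weeks and -4.69 to -4.35 at 5 weeks. Ins2 was 1.37 to 1.60, 1.105 to 1.36 and -1.43 to -0.025, and the sum was 0.24 to 0.47, -0.16 to 0.06 and -2.54 to -1.33. Between mutant times, Ins1 was -1.81 to -1.21 (1 to 3 weeks), -3.37 to -2.76 (1 to 5) and -1.74 to -1.40 (3 to 5). Ins2 was -0.32 to -0.13, -2.86 to -1.46 and -2.63 to -1.22 over the same steps, and the sum was -0.47 to -0.31, -2.86 to -1.65 and -2.47 to -1.26. The log2 ratio of Ins2 to Ins1 differed from wild type by 2.61 to 3.29, 4.03 to 4.33 and 2.92 to 4.67. Its differences between mutant times were 0.86 to 1.54 (1 to 3 weeks), -0.069 to 1.68 (1 to 5) and -1.23 to 0.52 (3 to 5). The insulin share differed from wild type by -31.7 to -26.4, -23.1 to -17.8 and -47.4 to -37.9 percentage points.

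List counts moved with the scale. With library totals alone, promoter factors had 15 and 18 higher at 3 and 5 weeks and 0 lower at each time, and folding genes had 1, 2 and 2 lower and 4 and 9 higher at 3 and 5 weeks. Conversion genes then had 7 and 8 higher at 3 and 5 weeks and 0 lower at each time, and receptor and signalling genes 0, 7 and 11 higher and 0 lower. With pan-endocrine scaling, promoter factors had 1 and 13 higher at 1 and 5 weeks, folding genes 4 lower at 5 weeks, conversion genes 2 higher and 1 lower at 5 weeks, and receptor and signalling genes 0, 0 and 6 higher and 3, 4 and 0 lower. By the DESeq2 Wald test, 5 promoter factors and 1 folding gene were higher at 3 weeks, and 2 receptor and signalling genes at 1 and at 3 weeks.

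Among single genes around insulin, signs turned with library totals alone, where the median of all genes was itself higher. At 3 weeks these were Creld2 (0.073), Ero1l (0.65), Ero1lb (0.017), Ide (0.047), Insr (0.024), Nkx2-2 (0.16), P4hb (0.099) and Sec61a1 (0.012). At 5 weeks they were Akt1 (0.80), Cpe (0.95), Creld2 (0.93), Iapp (0.89), Insr (0.68), Irs2 (0.86), Mafa (0.91), Nkx2-2 (0.64), P4hb (0.30), Pcsk1 (0.0034), Pcsk1n (0.73), Pcsk2 (0.91), Pdia6 (0.35), Pdx1 (0.74), Pik3r1 (0.47), Ptprn2 (0.19), Scg3 (0.77), Scg5 (0.91) and Sec61a1 (0.34). Precision at 5 weeks is limited by 2 libraries.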
